A study of Mus musculus with 6 samples.

Results

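TRIM genes encode a family of proteins built on a RING finger, B-box zinc fingers and a coiled coil. In this family 58 genes of the 19938 measured were examined in an experiment that asked which RNAs of kidney podocytes accompany Staufen2. The members were all genes whose symbol is Trim followed by a number and at most a letter from a to d, each represented by its brightest probe set with a single gene symbol. Trim32 was among them as a transcript described as a Staufen target. Every member had exactly 1 such probe set.

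The RNA came from an immortalized mouse podocyte line that was grown at a permissive temperature with gamma-interferon and then differentiated at a higher temperature without it. The 2 groups were total input RNA (3 arrays) and RNA pulled out of cytoplasm by an anti-Staufen2 antibody (3 arrays), Staufen2 being a protein that binds double-stranded RNA. Both groups came from the same kind of differentiated cells, and 100 ng of RNA was labelled in each case, so values describe shares of the RNA, not how much RNA was recovered. The cells are a cultured line. The labels do not name separate cultures for the replicates, so the spread behind each p-value is that of these 6 samples and may be technical. No control-antibody sample was analysed here.

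In the RING finger lies the ubiquitin ligase activity of most TRIM proteins, which passes ubiquitin from an E2 enzyme to a target. The C-terminal domain differs between classes and sets what a member binds: PRY-SPRY domains are frequent among members of innate immunity, the PHD finger and bromodomain mark nuclear corepressors, NHL repeats can bind RNA, and the COS domain binds microtubules. Not all members are ligases by this rule, since Trim14, Trim16, Trim29, Trim44 and Trim66 are described as lacking a RING finger. The samples are bulk RNA, so individual cells within a sample cannot be told apart.

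Array medians ran from 6.53 to 6.54 on the log2 scale, and correlations between arrays over all probe sets were at least 0.998 within a group and 0.982 to 0.983 between groups. The cells were checked against 9 measured podocyte markers. After the pulldown 6 of them were enriched and none was depleted, and their median difference was 0.28. The shares over all genes, for this list and the marker lists that follow, were 31.3% higher and 17.3% lower. Cdkn1c, at 7.59 in the input, had a negative difference that did not pass (-0.16, limma adjusted p = 0.098), as did Tcf21 (-0.029). Wt1 (9.57), Synpo (8.29), Cd2ap (11.98), Actn4 (13.09) and Lmx1b (8.15) exceeded 6.54 in the input, which is the median over all probe sets and is called the midpoint from here on, while Nphs1 (6.30), Podxl (6.04) and Tcf21 (5.91) were under it, where signal can be background. Of 7 immune markers none was higher and 3 were lower, with input values of 5.15 to 7.68 over the list, of which Ptprc stood at 5.64. Means exceeded the midpoint in 2 of these 7. Of 6 endothelial markers 3 were higher and 1 lower, with input values of 5.34 to 10.34 and Pecam1 at 5.62. Only Ehd3 (10.34) had a mean above the midpoint, and the called genes Tek (5.66), Kdr (5.34) and Emcn (5.66) can hold background. Of all genes with a mean not above the midpoint 9.19% were higher and 3.05% lower. Of 8 mesangial and muscle markers 2 were higher, with input values of 5.21 to 13.57. These were the smooth muscle myosin Myh11, from 10.36 to 11.81 (1.44, 2.72-fold, a larger difference than that of any TRIM member), and Pdgfrb (0.32), while Acta2, the brightest, did not pass (-0.0014). The part of these lists in the results was not tested.

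The TRIM mRNAs were more often enriched than depleted in the Staufen2 pulldown, and by moderate amounts. Trim59, Trim56, Trim2 and Trim37 showed the largest positive differences, of 0.71 to 0.84 on the log2 scale, and Trim13 was the member with the largest negative difference, at -0.65. Differences are pulldown minus input from a linear model over all genes (limma's moderated test, 2-sided), and a gene was called higher or lower at a Benjamini-Hochberg adjusted p under 0.05 over all 19938 genes. By this rule 24 members were enriched, 3 were depleted and 31 failed the test. Of all genes 31.3% were higher and 17.3% lower, against 41.4% and 5.17% of the members. The median difference was 0.10 over the members and 0.042 over all genes. No member passed the test with a change of 2-fold or more, which 3.67% of all genes did.

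These counts depended on how the arrays were scaled. After cyclic loess normalization 21 members were higher and 9 lower, and after centring on the brightest probe sets 21 were higher and 6 lower. Over all genes cyclic loess gave 5127 higher and 4565 lower, and centring gave 5398 and 4227, against 6246 and 3459 in the main fit. The 6 members that became lower with cyclic loess were Trim12a, Trim23, Trim26, Trim27, Trim32 and Trim35, whose main differences ran from -0.12 to -0.014. Against a required change of 1.2-fold (limma's treat) 13 members remained higher and Trim13 alone remained lower. Of all genes 3034 were higher and 1822 lower by that rule.

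Dim members showed small differences. In 19 of 58 the mean of all 6 arrays did not exceed the midpoint, and among these the differences ran from -0.089 to 0.24. Only Trim38 of these passed the test (0.19 ± 0.038, SE, limma adjusted p = 0.0043), at values of 6.12 to 6.15 in the input and 6.26 to 6.39 in the pulldown. Few dim genes of any kind passed: of 7929 such genes 9.19% were higher and 3.05% lower. Of the 39 brighter members 23 were higher and 3 lower, and of the 12009 genes as bright 45.9% were higher and 26.8% lower. Pulldown and input values did not overlap in 34 of 58 members, and in 55.9% of all genes. An exact permutation test of 3 against 3 arrays cannot give a p below 0.10, so no such p is given.

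**Figure D1:**
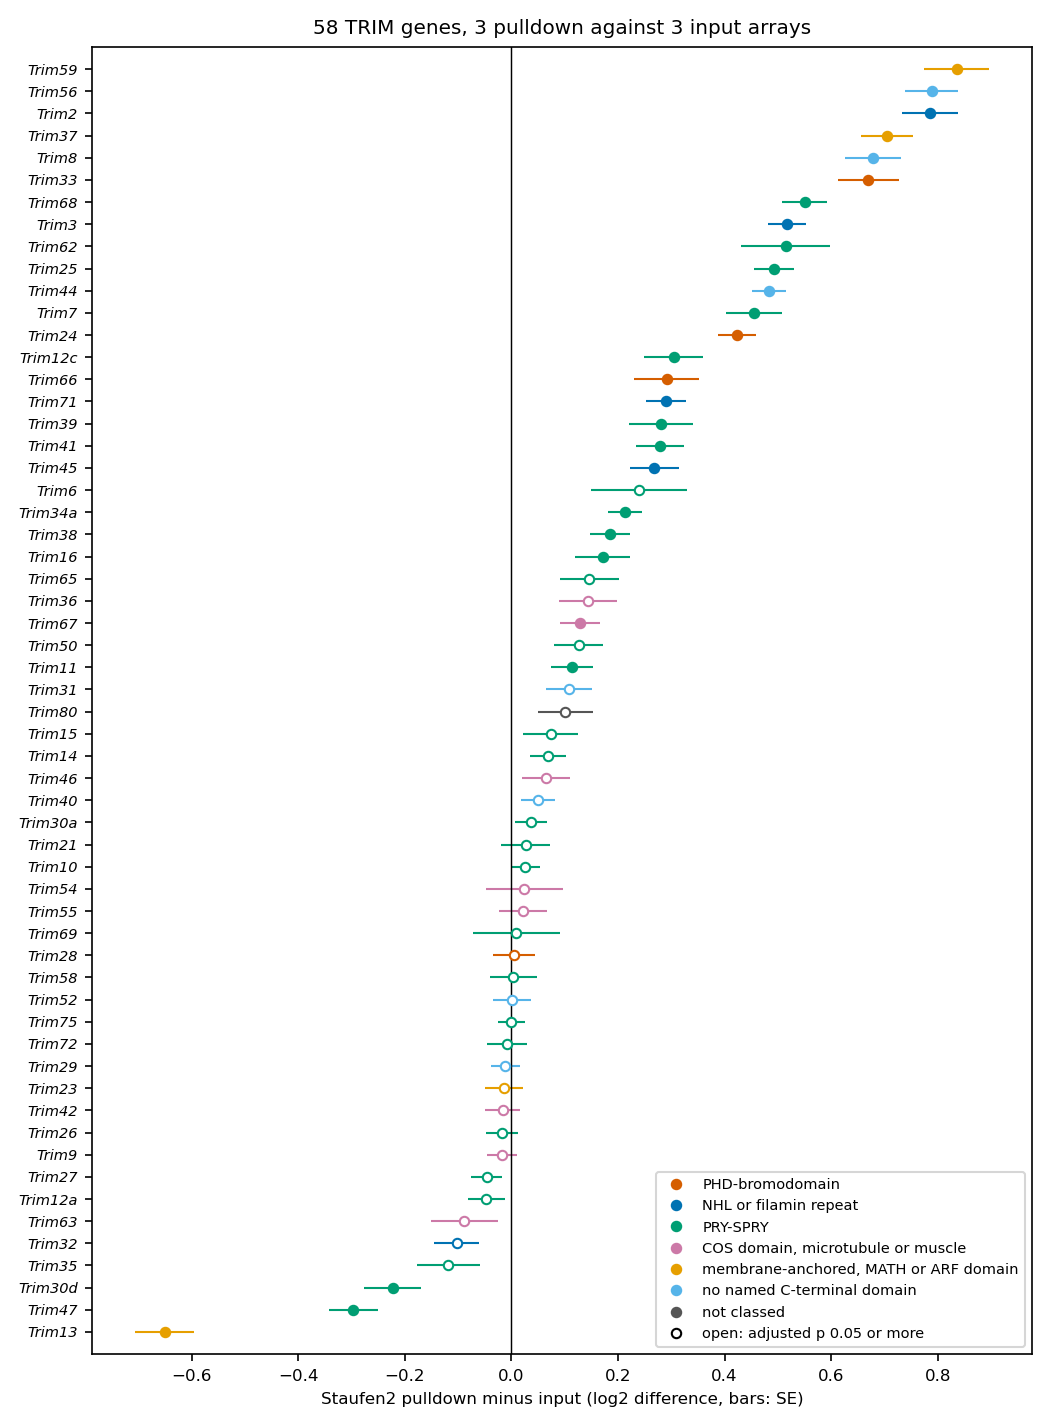
Log2 difference between Staufen2 pulldown and input (x axis) for the 58 TRIM genes in order of size, with the standard error as bars and the protein class as colour; filled points passed limma's test. The points run from Trim13 at -0.65 to Trim59 at 0.84, with 24 filled points above 0 and 3 below.

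Nuclear TRIM corepressors with a PHD finger and bromodomain were higher in 3 of 4 cases, while Trim28, the corepressor KAP1 of zinc finger repressors, did not pass. All 4 had means above the midpoint, where 45.9% of all genes were higher and 26.8% lower. Differences between the protein classes were not tested, here or below. Trim33, a regulator of SMAD signalling, read 10.42, 10.51 and 10.46 on the input arrays and 11.09, 11.26 and 11.05 on the pulldown arrays. All pulldown values thus lay above all input values, a difference of 0.67 ± 0.057 (SE, limma adjusted p = 3.3e-05), or 1.59-fold. Trim24, a coregulator of nuclear receptors, went from 9.29, 9.34 and 9.32 to 9.70, 9.80 and 9.72. Its groups were likewise apart (0.42 ± 0.036, adjusted p = 3.1e-05). Trim66, a member of the same class found mainly in testis, read 6.52, 6.50 and 6.66 in the input and 6.80, 6.80 and 6.96 in the pulldown, close to the midpoint in both groups. It passed the test as well (0.29 ± 0.060, adjusted p = 0.0048), but not against a required 1.2-fold change. Trim28 read 11.28, 11.20 and 11.25 in the input and 11.28, 11.18 and 11.29 in the pulldown. The groups overlapped, and the 95% interval of its difference ran from -0.088 to 0.098 (adjusted p = 0.93), below the intervals of Trim33 (0.54 to 0.80) and Trim24 (0.34 to 0.51). Its gene overlaps the span of the predicted gene Gm31649, so its probe set may not be specific.

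Members with NHL or filamin repeats, many of them known from neurons and muscle, were higher in 4 of 5 cases, and the exception was Trim32. Their means all exceeded the midpoint, and of all genes as bright 45.9% were higher and 26.8% lower. Trim2, a ligase that acts on neurofilament light chain, rose from 8.69, 8.66 and 8.59 in the input to 9.52, 9.34 and 9.44 in the pulldown. The difference was 0.79 ± 0.052 (limma adjusted p = 8.5e-06), or 1.72-fold, with no overlap between groups. Trim3, its close paralog, read 10.52, 10.48 and 10.52 in the input and 11.05, 10.96 and 11.06 in the pulldown. It was higher by 0.52 ± 0.035 (adjusted p = 9.4e-06), and its 95% interval of 0.43 to 0.60 lay below that of Trim2 (0.66 to 0.91). Trim71, the developmental regulator Lin41 that silences mRNAs, read 6.64, 6.66 and 6.55 against 6.90, 6.93 and 6.88. Values this near to the midpoint can hold background, and the difference was 0.29 ± 0.038 (adjusted p = 0.00038). Trim45, which has a filamin repeat, read 7.15, 7.03 and 7.18 in the input and 7.36, 7.35 and 7.44 in the pulldown, a difference of 0.27 ± 0.046 (adjusted p = 0.0018). Neither Trim71 nor Trim45 passed against a required 1.2-fold change.

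Trim32, a ligase whose loss causes a muscular dystrophy and which was included as a described Staufen target, was not enriched. Its values were 9.51, 9.64 and 9.62 in the input and 9.51, 9.44 and 9.51 in the pulldown. The lowest input array lay within the pulldown values. The difference was -0.10 ± 0.043 (limma adjusted p = 0.088), with a 95% interval of -0.20 to -0.0022 before adjustment over genes. Trim32 became lower with cyclic loess (-0.22, adjusted p = 0.0030), with centring on the brightest probe sets (-0.14, adjusted p = 0.022) and without input replicate 1 (-0.14, adjusted p = 0.025). Across all alternatives its adjusted p ran from 0.0030 to 1. The gene lies within the span of Astn2, which read 6.17 in the input and 6.23 in the pulldown, below the midpoint.

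Among members with a membrane anchor, a MATH domain or an ARF domain, 2 were higher, 1 was lower and Trim23 did not pass. These 4 had means above the midpoint, where 45.9% of all genes were higher and 26.8% lower. Trim59, which sits in the endoplasmic reticulum membrane, read 9.45, 9.37 and 9.39 in the input and 10.16, 10.38 and 10.17 in the pulldown. This was the largest difference of the 58 members, at 0.84 ± 0.061 (limma adjusted p = 1.5e-05) or 1.78-fold, and 3.41% of all genes had a larger one. Trim37, a ligase of centrosomes and peroxisomes mutated in mulibrey nanism, read 10.22, 10.26 and 10.22 against 11.00, 10.83 and 10.98. It was higher by 0.71 ± 0.049 (adjusted p = 1.1e-05), or 1.63-fold, without overlap. Its gene overlaps the span of Ppm1e, whose own values were dim (input 5.75, pulldown 5.83).

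Trim13, the other ligase anchored in the endoplasmic reticulum membrane, moved the opposite way. It read 10.46, 10.52 and 10.68 in the input and 9.92, 9.88 and 9.91 in the pulldown. Every pulldown array was lower than every input array, at -0.65 ± 0.055 (limma adjusted p = 3.2e-05) or 1.57-fold lower, and the call held under all 14 alternatives. Its gene overlaps the span of Kcnrg, which read 5.53 in the input and 5.70 in the pulldown. Trim23, with a GTPase domain of the ARF type, stood at -0.014 ± 0.036 (adjusted p = 0.78), with an interval of -0.098 to 0.070, and became lower with cyclic loess (-0.13, adjusted p = 0.015).

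Of 7 members without a named C-terminal domain 3 were higher and none lower, and 3 had means above the midpoint. Over all genes 31.3% were higher and 17.3% lower. Trim56, an antiviral factor, read 10.16, 10.00 and 10.15 in the input and 10.83, 10.91 and 10.92 in the pulldown, higher by 0.79 ± 0.050 (limma adjusted p = 7.0e-06) or 1.73-fold. Trim8, a regulator of cytokine signalling, read 9.83, 9.96 and 10.03 against 10.62, 10.66 and 10.58, higher by 0.68 ± 0.053 (adjusted p = 2.0e-05). Both had groups that stood clearly apart. Trim44, which lacks a RING finger, was higher by 0.48 ± 0.032 (adjusted p = 7.9e-06), from 10.75 to 10.82 in the input to 11.23 to 11.28 in the pulldown. Trim29, Trim31, Trim40 and Trim52 had input values of 5.25 to 5.89, all below the midpoint, with differences of -0.012 to 0.11 that did not pass. Over the 5 members described as lacking a RING finger, Trim44, Trim66 and Trim16 were higher, and Trim14 (0.069, adjusted p = 0.13) and Trim29 (-0.012, adjusted p = 0.75) did not pass.

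**Figure D2:**
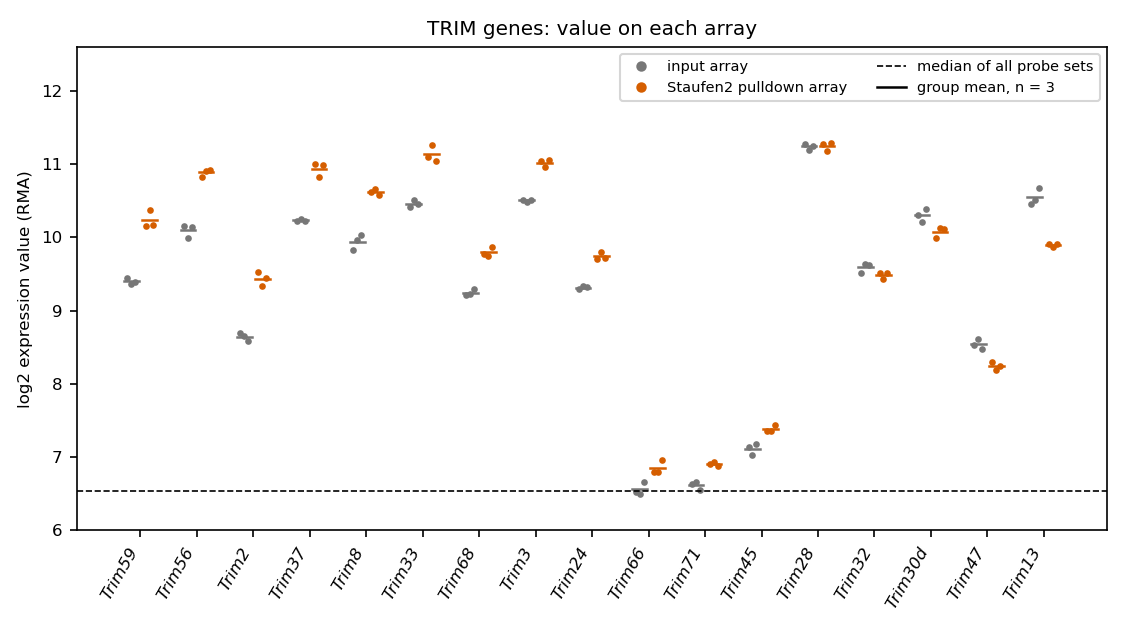
Log2 expression value (y axis) of 17 TRIM genes on each input array (grey) and each Staufen2 pulldown array (orange), with short lines for group means (n = 3) and a dashed line for the midpoint. The groups stand apart for all genes shown except Trim28 and Trim32, and Trim30d, Trim47 and Trim13 are lower in the pulldown.

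The PRY-SPRY class was the largest, with 29 members, of which 11 were higher (37.9%), 2 lower (6.90%) and 16 did not pass. Over all genes 31.3% were higher and 17.3% lower. The median difference of the class was 0.073, and 20 members had means above the midpoint. Trim68, a coactivator of the androgen receptor, read 9.22, 9.23 and 9.29 in the input and 9.78, 9.74 and 9.87 in the pulldown. It was the class member with the largest difference, 0.55 ± 0.042 (limma adjusted p = 1.7e-05), or 1.46-fold. Trim25, the ligase that ubiquitinates the RNA sensor RIG-I and itself binds RNA, ran from 10.21 to 10.30 in the input and from 10.68 to 10.76 in the pulldown. It was higher by 0.49 ± 0.037 (adjusted p = 1.7e-05). Trim62 (0.51 ± 0.083) and Trim7 (0.46 ± 0.053) were higher as well, and in Trim62 input replicate 3, at 7.83, stood above the other input arrays, at 7.53 and 7.52. Trim12c (0.30), Trim39 (0.28), Trim41 (0.28), Trim34a (0.21), Trim38 (0.19), Trim16 (0.17) and Trim11 (0.11) made up the remaining higher members. The calls of Trim16 and Trim11 were the least secure of the class: both ended with cyclic loess (0.069 and 0.0091) and without input replicate 1, input replicate 2, pulldown replicate 1 or pulldown replicate 3.

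Trim47 and Trim30d were the lower PRY-SPRY members. Trim47 read 8.53, 8.62 and 8.48 in the input and 8.31, 8.19 and 8.24 in the pulldown, lower at -0.30 ± 0.046 (limma adjusted p = 0.0010). Trim30d, a rodent member, read 10.31, 10.21 and 10.38 against 10.00, 10.12 and 10.11. Its groups did not overlap but lay close, at -0.22 ± 0.054 (adjusted p = 0.010). Neither passed against a required 1.2-fold change.

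Several PRY-SPRY genes of innate immunity were well above the midpoint and did not pass. Trim30a, a rodent inhibitor of NF-kB signalling, read 12.08, 12.03 and 12.07 in the input and 12.10, 12.13 and 12.06 in the pulldown, and its 95% interval was -0.036 to 0.11. Trim21, the cytosolic antibody receptor, had an interval of -0.083 to 0.14, and its values of 9.96 to 10.06 in the input lay within the pulldown range of 9.95 to 10.11. Trim27 (-0.046), Trim26 (-0.018), Trim35 (-0.12), Trim12a (-0.047), Trim14 (0.069) and Trim65 (0.15) did not pass either. Across all 13 members with a mean above the midpoint that did not pass, the 95% intervals stayed between -0.26 and 0.28. A p above the threshold does not show that their levels were equal. The other PRY-SPRY members that did not pass, Trim6, Trim50, Trim15, Trim10, Trim69, Trim58, Trim75 and Trim72, had means at or below the midpoint, and Trim75 read 4.95 on every array. Trim80, which was put in no class, read 6.33 in the input and 6.43 in the pulldown and did not pass (0.10, adjusted p = 0.15).

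COS domain members, which include neuronal microtubule proteins and the muscle ligases of the MuRF group, gave little signal. Means exceeded the midpoint in 3 of 8, and over all genes 31.3% were higher and 17.3% lower. Of 8 only Trim67 passed (0.13 ± 0.038, limma adjusted p = 0.025), from 6.64 to 6.71 in the input to 6.77 to 6.87 in the pulldown. That call ended with cyclic loess (0.083, adjusted p = 0.10), with the replicate number as a block (adjusted p = 0.053) and without input replicate 1, input replicate 3 or pulldown replicate 3. The muscle ligases Trim63, Trim55 and Trim54 read 6.04, 5.63 and 6.68 in the input, with differences of -0.089, 0.021 and 0.024. Trim9, Trim36 and Trim42 had input values of 5.77, 5.72 and 6.16 and did not pass. Trim46, which organises microtubules of the axon, read 8.31, 8.31 and 8.45 against 8.37, 8.45 and 8.45, and the groups overlapped (0.065, adjusted p = 0.28). Its gene overlaps Krtcap2, a strongly detected gene that was lower at -0.81 ± 0.041 from an input value of 12.10, so the value of Trim46 is uncertain.

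**Figure D3:**
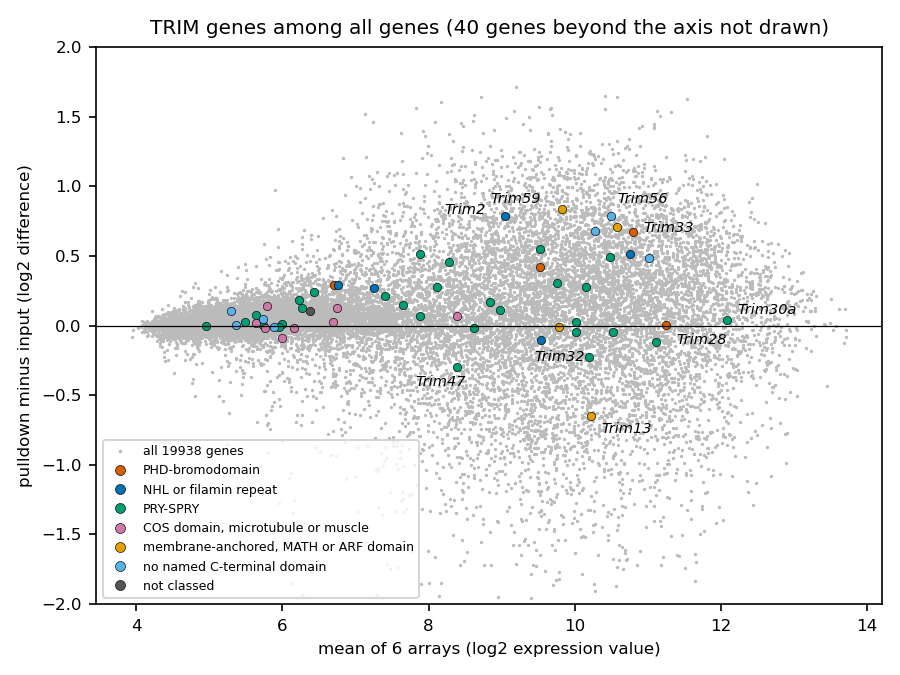
Log2 difference between pulldown and input (y axis) against the mean of 6 arrays (x axis) for all genes (grey) and the TRIM genes (coloured by class). TRIM genes at low signal lie near 0, as other genes there do, and those of higher signal spread from -0.65 to 0.84, with 40 genes beyond 2 on either side not drawn.

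Gene position and gene copies were compared with the differences. In the RefSeq gene table (GRCm38.p6), 13 members had another member as their next protein-coding neighbour, and 6 members overlapped the span of another gene. Neighbours did not always move alike. Trim47 (-0.30) and Trim65 (0.15, not past the test) lie next to each other, as do Trim30a (0.037, not past) and Trim30d (-0.22), while the neighbours Trim41 (0.28) and Trim7 (0.46) were both higher. In the run of Trim26, Trim15, Trim10, Trim40 and Trim31 none passed, but all except Trim26 had means below the midpoint. Trim26 became lower with cyclic loess (-0.11, limma adjusted p = 0.014). The rodent genes Trim12a and Trim12c, relatives of the antiviral factor TRIM5, share probe sets with Trim5. The Trim30 genes are related copies too. Sequences were not compared, but signal may be shared between copies, so the single values of these genes are uncertain. Over the 58 members the genomic span of the gene, which includes introns, had a Spearman correlation of 0.22 with the difference, and 0.27 over the 39 brighter members. Over 18556 protein-coding genes it was 0.36, and over the 11637 of these with a mean above the midpoint it was 0.48.

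The family proteins Mid1, Mid2, Pml and Mefv carry other symbols and were therefore outside the rule. Mid2 and Mid1, microtubule-binding ligases with a COS domain, were higher by 1.03 ± 0.029 (limma adjusted p = 2.8e-07) and 0.31 ± 0.042 (adjusted p = 0.00053). Mid2 read 10.10, 10.09 and 10.15 in the input and 11.14, 11.13 and 11.16 in the pulldown, a 2.04-fold difference that no Trim-named gene reached. Pml, the organiser of nuclear bodies, was higher by 0.17 ± 0.037 (adjusted p = 0.0052) but not with cyclic loess, and Mefv (5.27 in the input) did not pass.

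Genes that work with TRIM proteins were taken from lists of partners and pathway members. All measured genes of the 4 lists that follow had a mean above the midpoint, where 45.9% of genes were higher and 26.8% lower, with a median difference of 0.086. These shares belong to the main fit. Of all 19938 genes 5127 were higher and 4565 lower with cyclic loess, and 3034 and 1822 against a required 1.2-fold change. Shares among genes as bright are not given for those settings, so the list counts there lack a matched background. Of 14 partners of Trim28 in gene silencing 12 were higher (85.7%) and 2 lower (14.3%), with a median difference of 0.47. Against a required 1.2-fold change 7 were higher and none lower. The helicase Chd3 (0.79 ± 0.030), the histone methyltransferase Setdb1 (0.71 ± 0.027) and the DNA methyltransferase Dnmt1 (0.74 ± 0.025) had the smallest adjusted p-values (4.7e-07 to 7.2e-07). Setdb1 read 9.58, 9.59 and 9.63 in the input and 10.31, 10.31 and 10.31 in the pulldown, whereas Trim28 itself overlapped between groups. Hdac1 (-0.13) and Zfp57 (-0.16) were the lower members, and the call of Zfp57 ended when any array other than pulldown replicate 3 was left out. With cyclic loess 10 of the partners were higher.

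Substrates and partners of Trim32, Trim37, Trim24 and Trim33 were measured for 15 of 17 listed genes, of which 12 rose (80.0%), 1 fell (6.67%) and 2 failed the test, and the median was 0.50. The centrosome genes Cep192 and Plk4, which act with Trim37 in centriole biology, were higher by 1.29 ± 0.033 and 1.09 ± 0.045. Cep192 read 9.45, 9.43 and 9.42 in the input and 10.75, 10.75 and 10.66 in the pulldown, which is 2.44-fold. The small RNA effector Ago1 was higher by 0.72 ± 0.040. Dtnbp1, dysbindin, a substrate of Trim32, was lower at -0.37 ± 0.034. With cyclic loess 10 were higher and 3 lower. The calls of Smad2 (0.15) and Pex5 (0.22), counted as rises, each ended under 5 of the 14 alternatives.

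Of 17 genes measured among 22 listed for the RIG-I and interferon induction pathway, 10 rose (58.8%), 5 fell (29.4%) and 2 failed the test, against 45.9% and 26.8% of genes as bright, and the median was 0.16 (0.053 with cyclic loess). Irf7, a transcription factor of interferon genes, read 11.07, 11.06 and 11.05 in the input and 10.11, 9.99 and 10.10 in the pulldown, lower at -0.99 ± 0.038. The DNA sensing adaptor Sting1 was lower too, at -0.60 ± 0.033. The adaptor ligase Traf6 was higher by 0.69 ± 0.038. With cyclic loess 7 were higher and 5 lower, and against a required 1.2-fold change 5 and 3. The call of Mavs (0.16), counted as a rise, ended under 8 of the 14 alternatives.

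The list of E2 enzymes used by TRIM ligases included the E2 variants Ube2v1 (-0.53) and Ube2v2 (0.19). Of its 11 measured genes of 13 listed, 8 were lower (72.7%) and 3 higher (27.3%), with a median of -0.38. Against a required 1.2-fold change 4 were lower and 1 higher. Ube2n, which builds ubiquitin chains used in immune signalling, read 11.26, 11.28 and 11.26 in the input and 10.05, 10.04 and 10.11 in the pulldown, a difference of -1.20 ± 0.030 (limma adjusted p = 2.3e-07) or 2.30-fold lower. Ube2e2 was lower at -0.53 ± 0.032. Ube2g2, an enzyme of endoplasmic reticulum degradation, was higher by 0.98 ± 0.034. The call of Ube2d3 (0.10) ended under 7 of the 14 alternatives and that of Ube2v2 (0.19) under 3. Both ended without input replicate 3, and with cyclic loess Ube2g2 alone remained higher. Rnf genes, another set of RING proteins, had 35 of 77 members higher (45.5%) and 11 lower (14.3%), with a median difference of 0.075. Beside them stood 24 (41.4%) and 3 (5.17%) of the 58 TRIM genes and a median of 0.10. Means exceeded the midpoint in 61 of the 77 Rnf genes and in 39 of the 58 TRIM genes. Of all genes as bright 45.9% were higher and 26.8% lower. No test of the difference between these families was made.

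**Figure D4:**
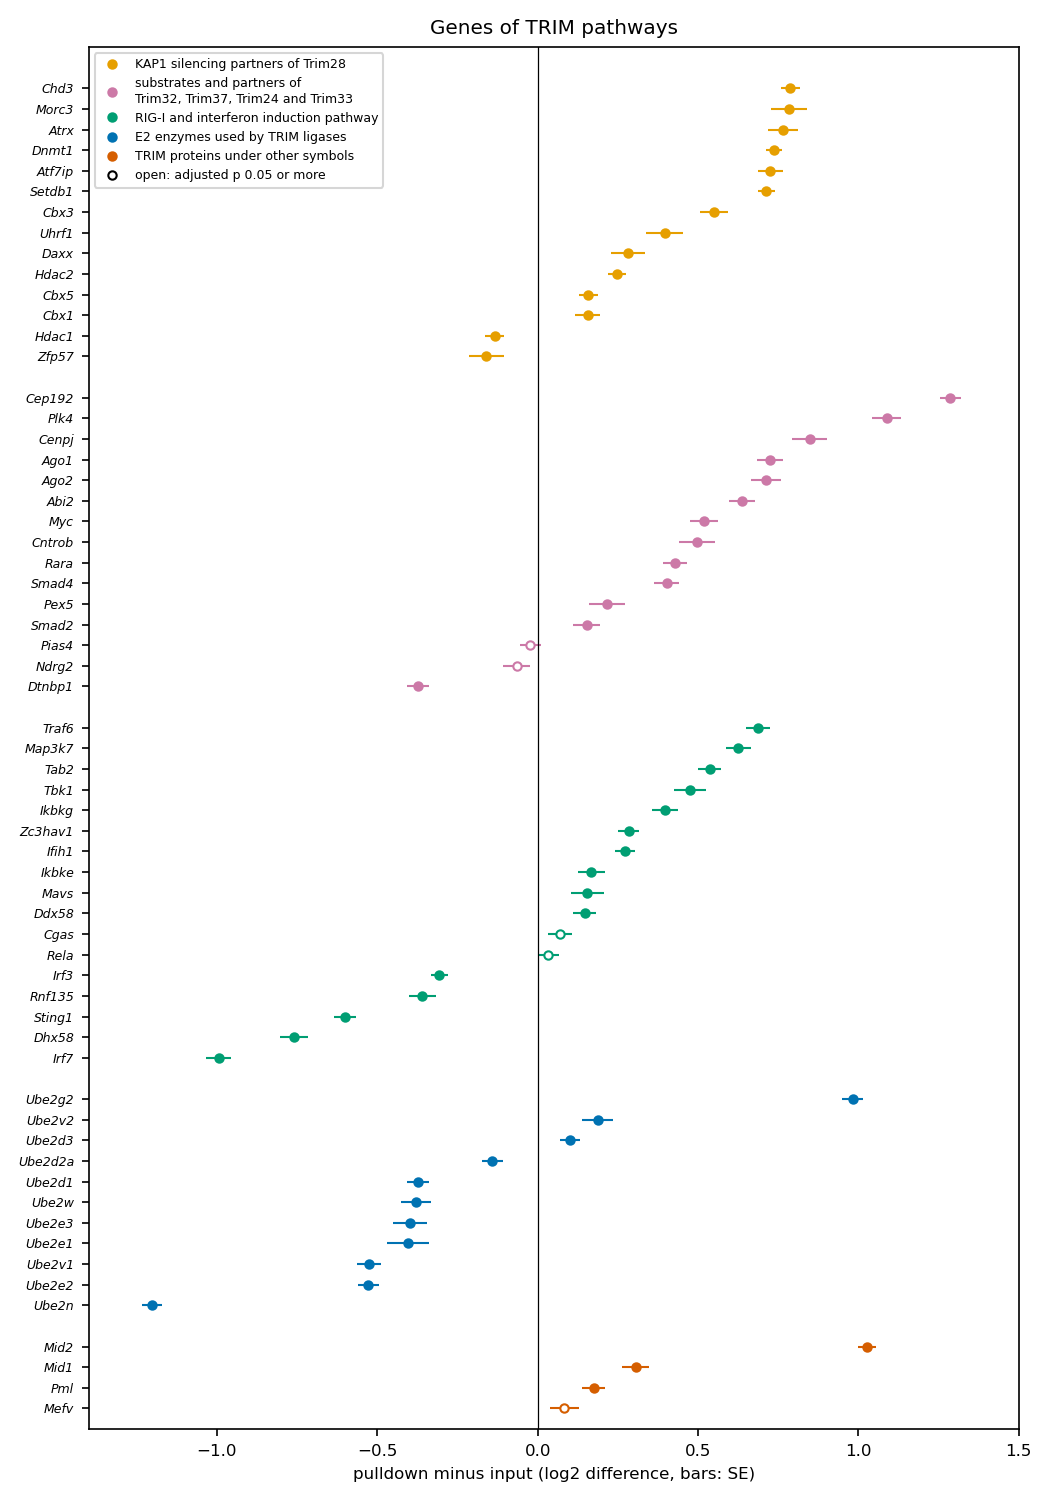
Log2 difference between pulldown and input (x axis), with the standard error as bars, for genes of 5 lists that work with TRIM proteins or belong to the family under other symbols; filled points passed limma's test. Most silencing partners lie right of 0, and 8 of 11 genes of the E2 list lie left of it, with Ube2n at -1.20.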

How the data were processed

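RNA of 3 input and 3 Staufen2 pulldown samples had been hybridized to arrays. Each deposited number is a log2 expression value of 1 probe set. RMA and limma are listed as tools, per the submitters' processing notes, and their versions are not given in the sources used here. Of 35556 probe sets 21789 had a single gene symbol in the platform annotation, and the brightest of these over 6 arrays stood for each of 19938 genes. The members, lists and naming rules were chosen with earlier results of these data known. The 8 largest positive and negative differences among eligible members (3 were eligible as negative), Trim32 and the PHD-bromodomain and NHL or filamin classes are given in full, and from each partner list the 3 genes with the smallest adjusted p. Other genes were named after their values were seen.

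Groups were compared with limma 3.58.1 in R 4.3.3, without covariates, in 1 fit over all genes with Benjamini-Hochberg adjustment. SEs are moderated. The fit was also run on simulated arrays with known differences and independent noise of the fitted size. That run does not bear on array scaling or on replicates that share a source. Alternatives were the replicate number as a block, an intensity trend, cyclic loess, centring on the brightest probe sets, a filter on low values, other rules for the probe set of a gene, a required 1.2-fold change, and leaving out each array. RMA as usually run makes array distributions alike, so differences are relative to other RNAs. Protein classes came from general knowledge. All 58 members matched RefSeq (GRCm38.p6) by Entrez identifier. Figures were drawn with matplotlib 3.10.9.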

Additional observations from a re-analysis of the deposited data

Results flagged for a closer look

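Probe sets listed with several TRIM symbols belong to no single gene and entered none of the comparisons. A pair of them was brighter after the pulldown than before it, and was marked for a closer look as signal outside the comparisons. The probe set of Trim5, Trim12c and Trim12a read 10.35, 10.34 and 10.38 in the input and 10.84, 10.78 and 10.82 in the pulldown, a difference of 0.46 ± 0.029 (limma adjusted p = 3.8e-05 over all probe sets). The probe set of Trim5 and Trim12c read 10.45, 10.39 and 10.26 against 10.95, 10.92 and 10.93, a difference of 0.57 ± 0.053 (adjusted p = 0.00022). Beside them, the probe sets with a single symbol gave 0.30 for Trim12c and -0.047 for Trim12a, which did not pass.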

How the results depend on the processing

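Of the 27 TRIM calls 14 held under all 14 alternatives, and cyclic loess kept 24 of them. It gave 9 lower members and a median member difference of 0.055, and centring on the brightest probe sets gave 6 and 0.063. The medians over all genes moved as well, to 0.016 with cyclic loess and 0.00099 with centring, from 0.042 in the main fit. Against a 1.2-fold change 13 members were higher and 1 lower, and of all genes 3034 were higher and 1822 lower. Leaving out each array in turn gave medians of 0.094 to 0.11. Trim32 stood at -0.22 with cyclic loess, at -0.14 with centring, and at -0.14 to -0.077 with an array left out. The labels do not say whether same-numbered input and pulldown arrays came from the same lysate. Deviations of same-numbered arrays correlated at 0.0064, 0.041 and -0.052, which shows no shared deviation but cannot decide whether the samples were paired. With a replicate block 25 members were higher and 3 lower, with Trim6 and Trim65 gained and Trim67 lost. Over all genes the block gave 6247 higher and 3467 lower. The number of arrays and dim signal limit the precision, and the median SE was 0.045 over the members.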

Other observations

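The shared probe set of H2aw and Trim17 was lower in the pulldown (-0.47 ± 0.029, limma adjusted p = 3.4e-05), from 8.36 to 7.89, and holds signal of a histone gene as well. The shared probe sets of Trim60 and Trim61, of the Trim43 genes and of Trim30b with Gm38525 read 5.30, 5.09 and 5.24 in the input and did not pass. The relatives Triml1 and Triml2 and the pseudogene Trim30e-ps1, at 5.54, 5.14 and 4.92 in the input, did not pass either.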
